A study of Mus musculus with 4 samples.

Results

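Single-nucleus RNA sequencing of inguinal white adipose tissue (iWAT), a subcutaneous fat depot of the mouse, was used here to follow aged mice from early to late cold. The comparison holds 4 of the 12 mice of the series: 2 aged mice after 3 days at 6 °C (3D) and 2 aged mice after 14 days at 6 °C (14D). Mice were chosen by the group names of the deposited hashed aliquots, and the 2 aliquots of a mouse were summed, which left 5381 of the 14634 nuclei kept in the series. The aged mice were male C57BL/6, obtained as C57BL/6JN or C57BL/6J, and 57 weeks old; which of the 2 substrains each mouse was is not given in the sources used here. Before the experiment all groups lived at 30 °C, a temperature near thermoneutrality for mice, over 3 weeks. The 3D mice then stayed at 30 °C for 11 days before the cold and the 14D mice went to 6 °C at once. They were single housed during these last weeks, and the lymph node of the depot was removed. Aged mice that remained at 30 °C (TN) and young mice, 9 weeks old, at the same 3 temperatures formed the other 4 groups, and each group held 2 mice. Each of 2 sequencing pools held 1 mouse of every group, and replicate 1 is the mouse of pool 1 and replicate 2 that of pool 2.

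White adipocytes store triglyceride, and in the cold some adipocytes of iWAT take on a beige state, in which uncoupling protein 1 (Ucp1) lets mitochondria burn fuel as heat. Adrenergic signals drive this response together with lipolysis, fatty acid oxidation and the uptake of glucose and lipid, and de novo lipogenesis, the synthesis of fatty acids from acetyl-CoA, also rises in cold-exposed fat. Adipocytes hold a circadian clock as well, in which ARNTL (BMAL1) and CLOCK activate the Per, Cry and Nr1d genes from E-box sequences, and the REV-ERB proteins made from Nr1d1 and Nr1d2 repress Arntl in turn. The comparison asks which of these genes, and which others, moved between day 3 and day 14 of cold in aged fat, class of nuclei by class of nuclei.

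The 3D mice gave 951 nuclei (replicate 1) and 1314 nuclei (replicate 2) with 1919004 and 3515423 UMIs (unique molecular identifiers, each 1 counted RNA molecule), and the 14D mice gave 1145 and 1971 nuclei with 2941677 and 4121961 UMIs. Within a pool no barcode was shared between aliquots, and 11 barcodes occurred in both pools of the series. The 2 aged 3D mice stood apart from each other. In replicate 1, 160 of the 502 adipocyte-like nuclei fell into a sub-cluster of low depth, against 12 of 437 in replicate 2, and its summed level of Gm42418, a transcript that carries ribosomal RNA sequence, was 15530 CPM (UMIs scaled to 1000000 per mouse and class) in adipocyte-like nuclei against 3541 CPM. Pool 1 was also the higher of the pools in the 14D mice, with 10960 against 5166 CPM of Gm42418 and 132 of 666 against 35 of 436 nuclei in the low-depth sub-cluster. This sub-cluster held the larger part of adipocyte-like nuclei in pool 1 in the other groups too, as with 187 of 584 against 29 of 241 in young TN mice. Leaving out the low-depth sub-cluster, a choice made after the data were seen, gave 37 called adipocyte genes in place of 34, while the part of Gm42418 in the results was not tested, and the counts of genes that passed in aged mice, class by class, are set beside their values without single mice. Each group held 2 mice, and the p-values of the edgeR gene tests rest on a spread estimated over all 12 mice of the 6 groups.

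Adipocyte-like nuclei had a summed level of 10 adipocyte markers between 29280 and 56260 CPM in the 4 mice, while the 10 fibroblast markers summed to 136 to 276 CPM there and the 6 epithelial markers were at 0. Their share of all nuclei was 52.8% and 33.3% in the 3D mice and 58.2% and 22.1% in the 14D mice, so the groups overlapped and the pools moved in opposite directions, by 5.38 percentage points in pool 1 and -11.1 in pool 2. Fibroblast-like nuclei made up 33.6% and 44.4% at 3D and 31.2% and 54.2% at 14D, and immune-like nuclei 8.52% and 11.3% at 3D and 4.89% and 14.1% at 14D. Endothelial-like nuclei made up 3.36% and 7.46% at 3D and 4.80% and 7.56% at 14D. An exact permutation test of day within pool, with 4 arrangements and a smallest two-sided p of 0.5, gave p = 1 for the adipocyte, fibroblast and immune shares and p = 0.5 for the endothelial share. No difference in these shares was larger than the spread between mice.

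Beige-like adipocyte nuclei were nearly absent at 3D and were present in both 14D mice. This sub-cluster, named from Ucp1, Cidea, Gk, Esrrg, Ppargc1a and Prdm16, held 2 of the 502 adipocyte nuclei (0.398%) of 3D replicate 1 and 0 of the 437 of replicate 2, where a count of 0 allows a share of up to 0.686% by counting error alone. At 14D it held 48 of 666 nuclei (7.21%) and 27 of 436 nuclei (6.19%). The mean share was 0.199% ± 0.282 (SD, n = 2) at 3D and 6.70% ± 0.717 (SD, n = 2) at 14D, a difference of 6.5 percentage points, with 6.81 in pool 1 and 6.19 in pool 2. Both 14D mice lay above both 3D mice, and p was 0.5 in the exact permutation test, the smallest it can give. The sub-cluster was drawn from these same nuclei, so its marker genes are no separate finding.

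**Figure D1:**
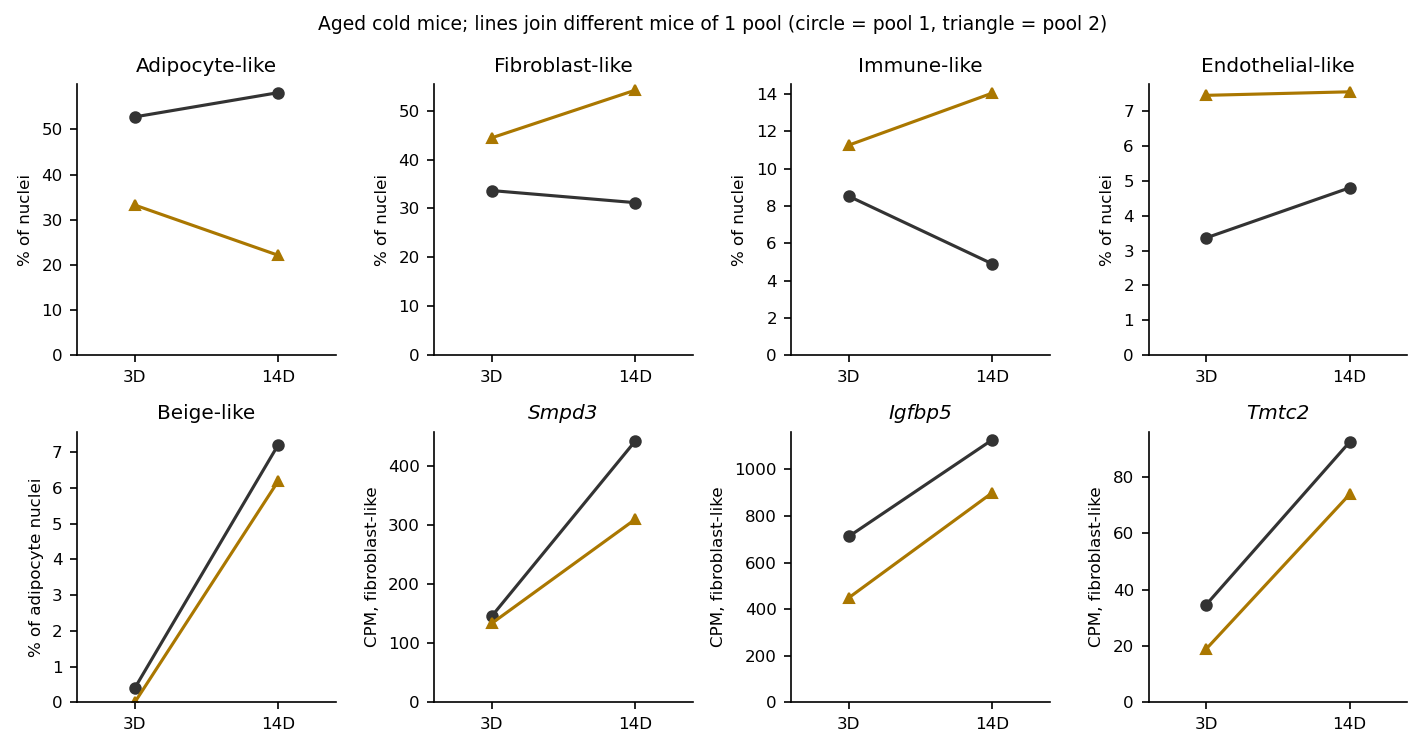
Share of nuclei (%) by class, beige-like share of adipocyte nuclei (%), and levels (CPM) of Smpd3, Igfbp5 and Tmtc2 summed over fibroblast-like nuclei, in the 4 aged cold mice at 3D and 14D. Circles are the mice of pool 1 and triangles those of pool 2, and lines join different mice of a pool. The 4 class shares overlap between days, whereas in the beige-like share and the 3 genes both 14D mice lie above both 3D mice.

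Adipocyte-like nuclei, the class with the most UMIs in each aged cold mouse, had more called genes between day 3 and day 14 than the other 3 classes tested; with no filter on low genes the counts were 54 in adipocyte, 48 in fibroblast, 16 in immune and 9 in endothelial nuclei. Counts were summed per mouse and compared with edgeR's quasi-likelihood test over all 12 mice. Of 10271 genes tested, 34 (0.331%) passed an adjusted p of 0.05, 21 of them higher at 14D (0.204%) and 13 lower (0.127%), and 782 had an unadjusted p below 0.05 (7.61%), 467 higher (4.55%) and 315 lower (3.07%). The 14D values lay beyond both 3D values in the same direction in 3712 of the 10271 genes (36.1%), a background against which non-overlap of 2 and 2 mice says little by itself. All 34 genes differed in the same direction in both pools, and 34 of 34 were also called by DESeq2, which called 85 genes (0.828%). The risen genes included Acot11, Gk, Pank1 and Slc27a2 of the thermogenic list, a biotin and pantothenate carrier and the transferrin receptor, and the fallen ones included the clock gene Arntl, the thyrotropin receptor and a collagen chain. The count rested on single mice: it was 3 without 14D replicate 1, 4 without 14D replicate 2, 4 without 3D replicate 1 and 34 without 3D replicate 2, and it was 19 and 20 without young 14D replicate 1 and 2, which entered the shared estimate of the spread. Without the pool as a term it was 17.

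The gene with the smallest p was Acot11 (GRCm38 chr4:106744555-106804998, minus strand), an acyl-CoA thioesterase that is induced by cold in brown fat. Its level was 2.87 and 4.53 CPM in the 3D mice and 102 and 94.6 CPM in the 14D mice. The 14D mice were far above the 3D mice, at a log2 fold change of 4.63 (SE 0.40, adjusted p = 0.00479 by edgeR), and the call held in 22 of 22 alternative settings. Gk (glycerol kinase, which returns glycerol to triglyceride synthesis) was at 30.1 and 24.7 CPM at 3D and at 162 and 140 CPM at 14D, with no overlap (log2 2.46, SE 0.28, adjusted p = 0.00573). Pank1, a pantothenate kinase that begins coenzyme A synthesis, was at 15.1 and 24.7 CPM at 3D and 138 and 108 CPM at 14D (log2 2.55, SE 0.45, adjusted p = 0.0476). Slc27a2, a very long chain acyl-CoA synthetase and fatty acid transporter, had no UMI in either 3D mouse and 11.0 and 13.5 CPM at 14D, which is at least 4.08-fold higher when each aliquot that did not list it is given 5 UMIs (adjusted p = 0.0473).

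These 4 genes were the called members of the thermogenic list, of whose 24 genes 20 could be tested. Of the 20, 4 rose and none fell, and 13 were higher and none lower at an unadjusted p below 0.05, against 4.55% and 3.07% of all genes. Their median log2 change was 1.58, against 0.01 over all genes tested. Both 14D mice lay above both 3D mice in 13 of the 20 genes, against 19.8% of all genes, and below them in 1. Outside the beige-like sub-cluster, which was named from members of this list, 17 of the 24 could be tested and 0 passed with edgeR. There 8 were higher and 1 lower at an unadjusted p below 0.05, against 3.46% and 3.26% of all genes there. The median was 0.78, against -0.02 over all genes there. Of the 17, 9 lay above, against 17% of all genes there. Ucp1 itself had 0 UMIs in both 3D mice, was listed in none of their 4 aliquots, and had 112 and 87 UMIs (51.2 and 53.5 CPM) at 14D, which is at least 8.82-fold higher on the same terms. Its adjusted p of 0.0721 did not pass, although DESeq2 gave 0.0024. Ppara, a nuclear receptor for fatty acid oxidation genes, was at 155.5 and 131 CPM at 3D and 1034 and 521 CPM at 14D, and missed the threshold as well (log2 2.37, SE 0.43, adjusted p = 0.0519). Cidea, a lipid droplet protein of brown and beige fat, was at 9.32 and 40.3 CPM at 3D and 155 and 153 CPM at 14D (log2 2.54, adjusted p = 0.103). Both genes passed in the low-depth sub-cluster taken alone, a fit with 12 nuclei in 3D replicate 2 that is given with the other sub-clusters. The coactivator Ppargc1a was at 115 and 182 CPM at 3D and 116 and 135 CPM at 14D (log2 -0.21, adjusted p = 0.996), and Prdm16, a beige fate regulator, was at 246 and 421 CPM and then 612 and 352 CPM (log2 0.55, adjusted p = 0.90), so that in both genes the days overlapped. Without 14D replicate 1 the change of Prdm16 was -0.05.

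**Figure D2:**
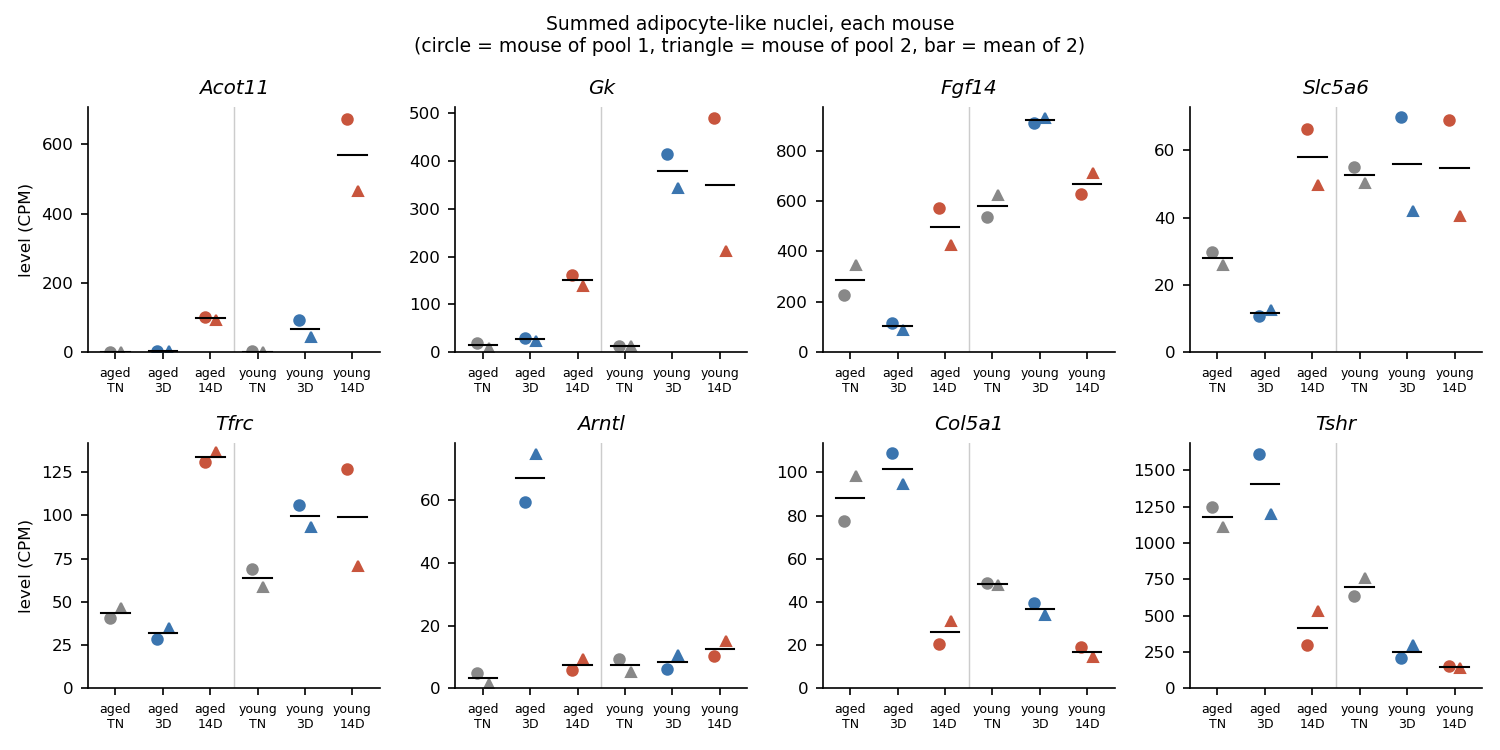
Levels (CPM) of Acot11, Gk, Fgf14, Slc5a6, Tfrc, Arntl, Col5a1 and Tshr summed over adipocyte-like nuclei of each of the 12 mice, by age and temperature. Circles are mice of pool 1, triangles mice of pool 2 and bars the mean of 2 mice. In the aged mice Acot11 goes from 2.87 and 4.53 CPM at 3D to 102 and 94.6 CPM at 14D, and Arntl from 59.5 and 74.5 CPM to 5.94 and 9.22 CPM.

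Part of the rise was carried by the beige-like nuclei, which held 5.52% and 6.93% of all adipocyte UMIs in the 14D mice. Of the 21 risen genes, 10 had more than 50% of their UMIs of the 14D mice in these nuclei, 10 had at most 20%, and Grk3 had 37.6%. The first kind were Lgr6 (95.7%), Sept9 (91.3%), Slc27a2 (87.0%), Nav2 (80.5%), Acot11 (80.2%), Gk (76.6%), Col27a1 (72.4%), Slc4a4 (59.9%), Pank1 (59.7%) and Rnf152 (59.4%), and of these Lgr6, Nav2, Col27a1 and Slc4a4 are named after their values were seen. Sept9, a septin of the cytoskeleton, was at 7.88 and 6.55 CPM in all adipocyte nuclei at 3D and 71.7 and 59.6 CPM at 14D (log2 3.16, SE 0.36, adjusted p = 0.00573), whereas outside the beige-like sub-cluster its log2 change was -0.54. The log2 change of Gk outside the sub-cluster was 0.52 (adjusted p = 0.92), and that of Acot11 was 2.43 (adjusted p = 0.258). Of the 10 genes that led the sub-cluster, 7 were Sept9, Acot11, Nav2, Gk, Col27a1, Slc4a4 and Pank1. Gk was one of its naming markers too. The clustering used these same nuclei, so for these genes the high share inside and the smaller change outside are a description that the grouping itself fixed in part. In sums over a class, more beige-like nuclei and more transcript in each nucleus cannot be told apart for such genes.

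Other genes rose in nuclei outside the beige-like sub-cluster. There 11 of 10034 genes tested passed (0.11%), 7 higher and 4 lower, and all 11 were among the 34. Fgf14 (chr14:123977907-124677127, minus strand), an intracellular fibroblast growth factor that binds sodium channels, was at 117 and 89.6 CPM in all adipocyte nuclei at 3D and 571 and 427 CPM at 14D, and its beige-like part was 3.34%. Its log2 change was 2.28 (SE 0.26, adjusted p = 0.00573) in all adipocyte nuclei and 2.31 (SE 0.25, adjusted p = 0.0113) outside the sub-cluster. The aged TN mice had 227 and 347 CPM of Fgf14, so that its 3D level was the lowest of the 3 temperatures. Slc5a6, the sodium-dependent carrier of biotin and pantothenate, was at 10.8 and 12.6 CPM at 3D and 66.3 and 49.8 CPM at 14D (log2 2.25, SE 0.27, adjusted p = 0.00775; outside the sub-cluster 2.24, adjusted p = 0.018). Clstn2, a calsyntenin, was at 85.3 and 54.9 CPM at 3D and 289 and 180 CPM at 14D (log2 1.74, adjusted p = 0.0141), and Sema3a, a secreted guidance molecule, at 10.8 and 9.57 CPM and then 30.2 and 48.6 CPM (log2 1.94, adjusted p = 0.0293). Both passed outside the sub-cluster too, at 1.80 (adjusted p = 0.018) and 2.00 (adjusted p = 0.0349). Tfrc, the transferrin receptor for iron uptake, was at 28.7 and 34.7 CPM at 3D and 131 and 136 CPM at 14D (log2 2.05, SE 0.26, adjusted p = 0.0085), and outside the sub-cluster its change of 1.99 had an adjusted p of 0.0515. Without 3D replicate 1 or without either 14D replicate the 11 genes became 0 or 2, without 3D replicate 2 they became 23, without young 3D replicate 1 they became 7, and without either young TN mouse 17.

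Fits within single adipocyte sub-clusters, added after the data were seen, called genes in each of the 3 tested. In sub-cluster 0, which stayed unnamed and was led by B3galt1 and Fgf14, 11 of 9004 genes passed (0.122%), 7 higher and 4 lower, among them Fgf14 (log2 2.12, adjusted p = 0.0389), Slc5a6 (1.97, 0.0338), Sema3a (2.04, 0.0338) and Arntl (-3.65, 0.00931). Col5a1 passed there as well, lower at 14D (adjusted p = 0.0498). In the Npr3-high-like sub-cluster 10 of 6293 genes passed (0.159%), 6 higher and 4 lower, among them Clstn2 (log2 2.32, adjusted p = 0.0172), Col5a1 (-2.10, 0.0326) and Timp4 (-2.10, 0.0433). In the low-depth sub-cluster, led by hemoglobin genes, 16 of 2941 genes passed (0.544%), 11 higher and 5 lower. Of the genes that missed the threshold in all adipocyte nuclei, Ppara (log2 2.22, SE 0.53, adjusted p = 0.00973), Cidea (6.42, SE 1.66, 0.0241) and Irs2 (3.09, SE 0.73, 0.00973) passed there, and so did Tshr, lower (-2.26, adjusted p = 0.00075). The low-depth fit rested on 12069 UMIs in 3D replicate 2 and 37219 in 14D replicate 2, against 182318 and 153716 in the mice of pool 1. Its calls and those over all adipocyte nuclei are therefore not on equal terms. Differences between sub-clusters were not tested.

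**Figure D3:**
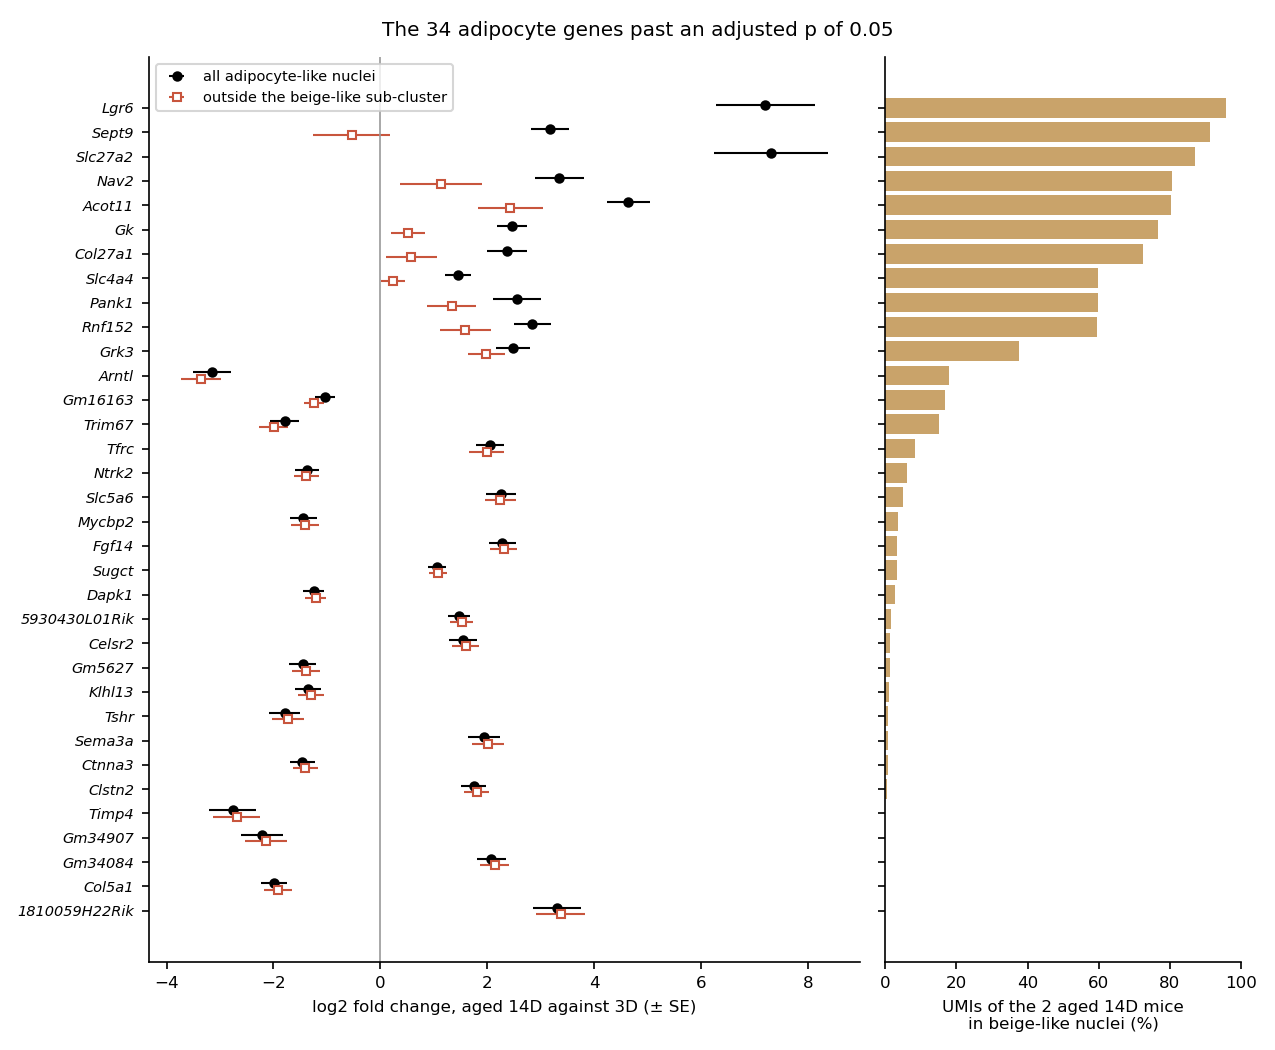
Left, log2 fold change ± SE of the 34 called genes at 14D against 3D in all adipocyte-like nuclei (black circles) and outside the beige-like sub-cluster (open squares, shown where the gene could be tested). Right, percent of the UMIs of the 2 aged 14D mice that lay in beige-like nuclei. Genes at the top have smaller values outside the sub-cluster, as Sept9 with 3.16 and -0.54, whereas Fgf14 (2.28 and 2.31) and Slc5a6 have nearly the same, and the values of Lgr6 and Slc27a2 are fitted against 0 UMIs at 3D.

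Among the 13 lower genes, each had at most 17.9% of its 14D UMIs in beige-like nuclei. Tshr (chr12:91384563-91549808, plus strand), the receptor for thyrotropin, which adipocytes carry, was at 1615 and 1202 CPM at 3D and 299.7 and 529 CPM at 14D, with no overlap (log2 -1.79, SE 0.29, adjusted p = 0.0297). It is one of the markers of the Npr3-high adipocyte state, and the Npr3-high-like sub-cluster held 33.1% and 18.8% of adipocyte nuclei at 3D and 28.5% and 18.3% at 14D, with overlap. These shares moved with the processing. With 1 aliquot per mouse they were 11.4% and 14.3% at 3D and 18.9% and 22.6% at 14D, without overlap. With doublets kept they were 29.8% and 34.1% at 3D and 29.8% and 50.4% at 14D. Of the other 5 markers 0 passed with edgeR, with log2 changes of -1.02 for Synpo2, -0.85 for Lep, -0.23 for Nnat and 0.76 for Prr16, and Npr3, the clearance receptor for natriuretic peptides, was at 587 and 455 CPM at 3D and 407 and 571 CPM at 14D (log2 -0.06, adjusted p = 1). The receptors Npr1 and Npr2 had log2 changes of 0.05 and -0.05, and 0 of these 3 receptor genes passed. Col5a1, a chain of fibrillar collagen V, was at 109 and 94.7 CPM at 3D and 20.6 and 31.3 CPM at 14D (log2 -1.99, SE 0.25, adjusted p = 0.00835), and it also fell outside the beige-like sub-cluster (-1.91, adjusted p = 0.0212). The white adipocyte list, which holds Tshr, had 1 fallen and 0 risen genes of 13 tested, with a median of -0.23. Timp4, an inhibitor of matrix metalloproteinases, was at 92.5 and 72.5 CPM at 3D and 8.22 and 16.6 CPM at 14D (log2 -2.76, SE 0.44, adjusted p = 0.0297). Dapk1, a death-associated kinase, was at 929 and 986 CPM at 3D and 372 and 435 CPM at 14D (log2 -1.25, adjusted p = 0.0297).

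Col5a1 was the called member of the extracellular matrix list. Of its 20 genes tested in adipocyte nuclei, 1 fell and none rose, and 7 were lower and none higher at an unadjusted p below 0.05, against 3.07% and 4.55% of all genes. The median log2 change was -0.77, against 0.01 over all genes. Both 14D mice lay below both 3D mice in 9 of the 20, against 16.3% of all genes, and above them in 1. Adamts5, a protease that cuts proteoglycans, was at 376 and 278 CPM at 3D and 64.4 and 134 CPM at 14D (log2 -1.70, adjusted p = 0.221), and Col15a1, a basement membrane collagen, at 142 and 216 CPM and then 49.3 and 73.8 CPM (log2 -1.54, adjusted p = 0.0902). The summed level of the 10 fibroblast markers in adipocyte nuclei moved the same way, from 276 and 236 CPM at 3D to 187 and 136 CPM at 14D, and its part in these genes was not tested. In fibroblast-like nuclei Col5a1 was at 404 and 407 CPM at 3D and 397 and 445 CPM at 14D (log2 0.06, adjusted p = 1).

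The clock gene Arntl (chr7:113207465-113314126, plus strand) was the fallen gene with the smallest p. Its level was 59.5 and 74.5 CPM in the 3D mice and 5.94 and 9.22 CPM in the 14D mice, and the days did not overlap. The log2 change was -3.15 (SE 0.35, adjusted p = 0.00573 by edgeR) in all adipocyte nuclei and -3.35 (SE 0.38, adjusted p = 0.0113) outside the beige-like sub-cluster. It kept its sign in all 23 alternative settings and the call in 18, and it missed the threshold with 1 aliquot per mouse (adjusted p = 0.161), with thinned UMIs (0.158), without 3D replicate 1 (0.0874), without 14D replicate 1 (0.103) and without 14D replicate 2 (0.0625). In the aged TN mice Arntl was at 4.97 and 1.45 CPM, so the 3D mice were the high ones among the aged groups.

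The promoters of the clock genes differ in the short sequences that clock factors bind, and 3 that hold an E-box or D-box are shown beside Arntl. Those of Dbp, Nr1d2 and Clock, whose values follow too, are not shown. The 250 bases before each start are given 5′ to 3′ on the coding strand (RefSeq, GRCm38.p6), with every match to the E-box CACGTG or the D-box TTATGTAA, on either strand, in capitals.
Arntl, chr7:113207215-113207464, plus strand: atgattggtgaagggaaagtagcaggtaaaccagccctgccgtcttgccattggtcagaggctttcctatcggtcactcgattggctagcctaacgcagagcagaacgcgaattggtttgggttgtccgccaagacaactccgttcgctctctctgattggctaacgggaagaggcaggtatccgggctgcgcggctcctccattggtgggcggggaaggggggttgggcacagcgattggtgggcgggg
Ciart, chr3:95882229-95882478, minus strand: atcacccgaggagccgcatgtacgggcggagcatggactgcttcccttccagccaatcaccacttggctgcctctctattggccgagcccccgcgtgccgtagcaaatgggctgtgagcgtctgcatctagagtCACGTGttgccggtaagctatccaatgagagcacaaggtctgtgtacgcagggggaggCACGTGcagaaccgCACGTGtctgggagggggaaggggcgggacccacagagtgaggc
Per3, chr4:151044666-151044915, minus strand: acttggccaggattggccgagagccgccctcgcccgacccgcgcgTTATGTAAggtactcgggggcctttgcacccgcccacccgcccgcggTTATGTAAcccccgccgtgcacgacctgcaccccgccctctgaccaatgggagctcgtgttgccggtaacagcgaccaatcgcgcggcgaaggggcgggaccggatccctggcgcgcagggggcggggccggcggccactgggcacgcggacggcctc
Tef, chr15:81811164-81811413, plus strand, second start: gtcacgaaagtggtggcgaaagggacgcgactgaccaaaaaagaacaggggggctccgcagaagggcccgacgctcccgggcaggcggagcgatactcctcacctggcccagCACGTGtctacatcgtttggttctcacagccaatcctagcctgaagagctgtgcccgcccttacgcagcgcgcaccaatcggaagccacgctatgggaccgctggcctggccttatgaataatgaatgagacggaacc

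The Ciart window held 3 E-boxes, at 116, 58 and 44 bases before the start, the Per3 window 2 D-boxes, at 205 and 158 bases, and the Tef window 1 E-box at 138 bases, while the Arntl window held neither sequence. Over 27025 genes with a promoter in the table, 6.86% had the E-box and 0.977% the D-box in this window. Of the 16 clock genes found there, 5 had the E-box (Bhlhe41, Ciart, Cry1, Per1 and Tef) and 1 the D-box (Per3). The sequence AGGTCA, which REV-ERB and ROR receptors bind, was in 15.8% of all genes and in 4 of the 16 (Clock, Nfil3, Nr1d2 and Per1). A match of letters is no measured binding, and no match says only that the letters are not in the window.

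Most other clock genes stood on the opposite side from Arntl. Of 18 clock genes tested in adipocyte nuclei, Arntl fell and none rose at the adjusted threshold. At an unadjusted p below 0.05 8 were higher and 2 lower, against 4.55% and 3.07% of all genes. The median log2 change was 0.64, against 0.01 over all genes. Both 14D mice lay above both 3D mice in 12 of the 18 (19.8% of all genes) and below them in 3 (16.3%). Dbp, a D-box activator and a textbook target of ARNTL and CLOCK, was at 20.8 and 24.2 CPM at 3D and 54.4 and 76.2 CPM at 14D (log2 1.52, SE 0.27, adjusted p = 0.0525), beside 80.5 and 68.0 CPM in the aged TN mice. Tef, a related activator, was at 250.1 and 290 CPM and then 499.8 and 500.9 CPM (log2 0.88, adjusted p = 0.216), Per3 at 386 and 481 CPM and then 593 and 773 CPM (log2 0.65, adjusted p = 0.239), and Ciart, a repressor, at 5.02 and 6.04 CPM and then 18.3 and 26.4 CPM (log2 1.98, adjusted p = 0.341). Nr1d2, the gene of REV-ERB beta, was at 135 and 109 CPM at 3D and 186 and 235 CPM at 14D (log2 0.79, adjusted p = 0.194). Clock, the partner of Arntl, was lower, with 238 and 167 CPM at 3D and 96.9 and 78.7 CPM at 14D (log2 -1.20, adjusted p = 0.072). None of these 6 genes passed, and in all 6 the days did not overlap.

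Arntl was also lower at 14D in the other classes where it could be tested, below the threshold for a call. It was at 105 and 138 CPM at 3D and 30.4 and 45.7 CPM at 14D in immune-like nuclei (log2 -1.64, unadjusted p = 0.0103, adjusted p = 0.999 by edgeR), and at 26.6 and 29.3 CPM and then 14.0 and 7.79 CPM in fibroblast-like nuclei (log2 -1.51, unadjusted p = 0.0423, adjusted p = 1). Classes of a mouse share its library and its hour of collection, so they are not separate observations. The hour at which each mouse was collected is not given in the sources used here, and its part in the clock genes was not tested.

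**Figure D4:**
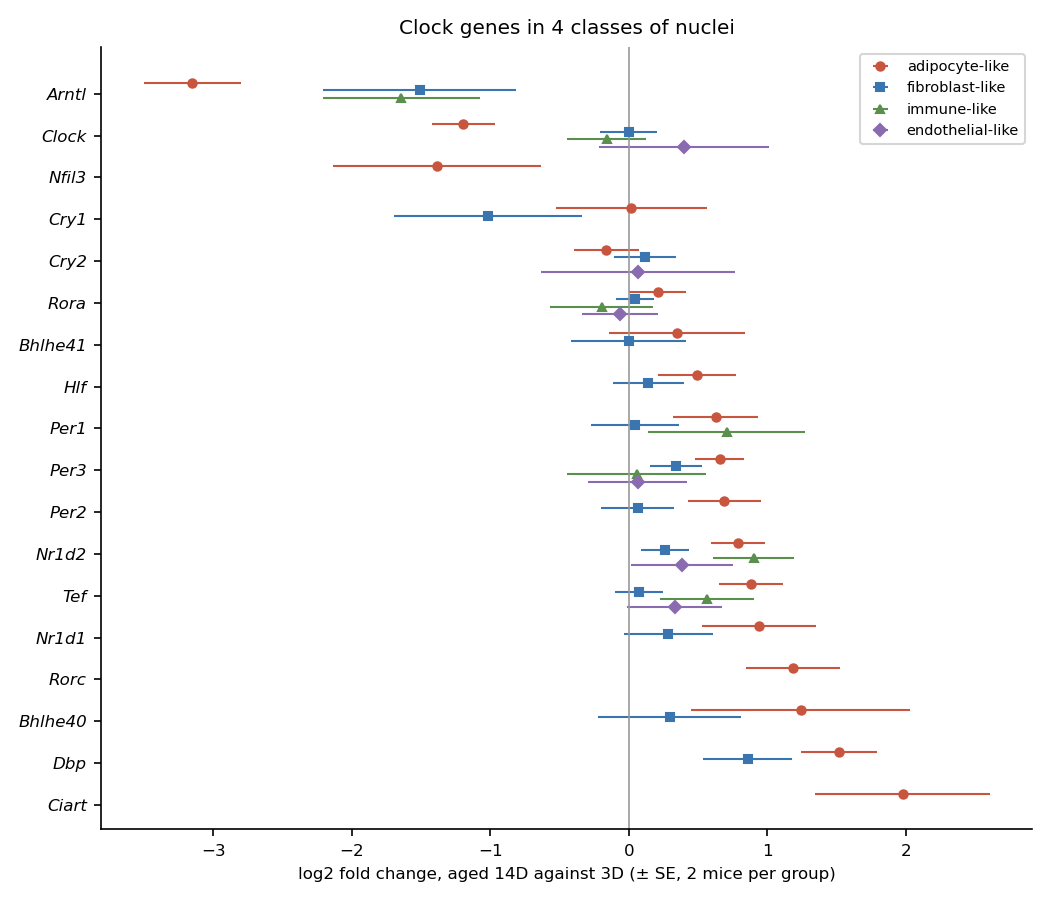
Log2 fold change ± SE at 14D against 3D in aged mice for the clock genes in adipocyte-like, fibroblast-like, immune-like and endothelial-like nuclei, each class where the gene could be tested. Arntl lies at -3.15 in adipocyte-like, -1.51 in fibroblast-like and -1.64 in immune-like nuclei, and 14 of the 18 genes lie above 0 in adipocyte-like nuclei, of which Cry1, close to 0, is at -0.08 under DESeq2.

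In de novo lipogenesis genes the 2 aged 3D mice differed from each other. All 19 genes of the list were higher in 3D replicate 2 than in 3D replicate 1, by a median of 1.49 on the log2 scale, whereas 10 of 19 were higher in replicate 2 at 14D, with a median of 0.05. Acaca, the acetyl-CoA carboxylase that commits carbon to fatty acid synthesis, was at 676 and 5281 CPM at 3D and 3653 and 2602 CPM at 14D (log2 0.17, SE 0.67, adjusted p = 1). Me1, malic enzyme, was at 265 and 1886 CPM and then 376 and 1333 CPM (log2 -0.24, adjusted p = 1), and Fasn, fatty acid synthase, at 124 and 536 CPM and then 313 and 309 CPM (log2 -0.09, adjusted p = 1). Both 14D values of Acaca, Me1 and Fasn lay between the 3D values. Acacb, the mitochondrial carboxylase, was at 356 and 1726 CPM at 3D and 3406 and 3209 CPM at 14D without overlap (log2 1.82, SE 0.51, adjusted p = 0.253), and Scd1, the stearoyl-CoA desaturase, at 380 and 409 CPM and then 1081 and 734 CPM (log2 1.17, adjusted p = 0.443). In the list as a whole 0 of 19 genes passed with edgeR, and the median was 0.26. At an unadjusted p below 0.05 6 were higher and 2 lower, against 4.55% and 3.07% of all genes. Outside the beige-like sub-cluster the median was -0.03 with 6 of 19 genes above and 2 below, against 17% and 18.2% of all genes there. The log2 change of Acaca there was -0.03 and that of Acly, the ATP citrate lyase that makes acetyl-CoA, was -0.47, against 0.41 in all adipocyte nuclei. The 14D mice were both above the 3D mice in 9 of the 19 genes, against 19.8% of all genes, and below them in 2, against 16.3%. Without 3D replicate 1 the log2 change of Acaca became -0.88, and without 3D replicate 2 that of Fasn became 1.503 and that of Me1 1.34. Within pool 1 the median was 1.28 with 17 of 19 genes higher at 14D, and within pool 2 it was 0.09 with 10 of 19. Sub-cluster 0, which stayed unnamed but was nearest to the lipogenic (DNL-high) state with 2 markers passed, also differed between the 3D mice. It held 159 of 502 adipocyte nuclei in 3D replicate 1 and 333 of 437 in 3D replicate 2. At 14D it held 276 of 666 and 283 of 436. The low-depth sub-cluster and Gm42418 moved with the 3D difference as given above. The part of each of these in the difference was not tested.

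**Figure D5:**
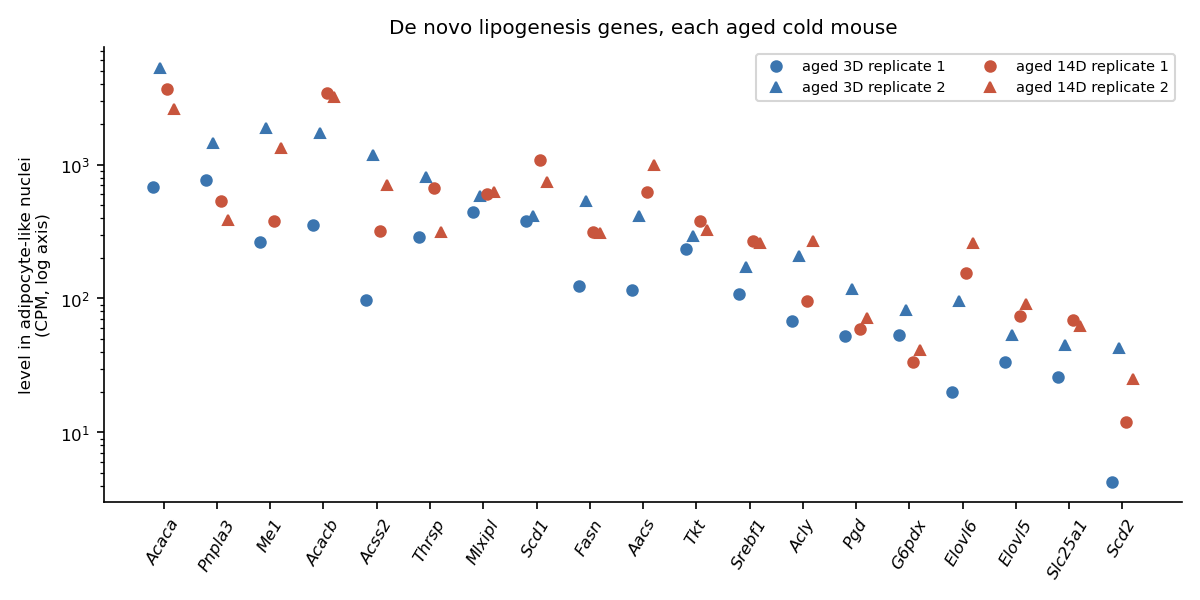
Levels (CPM, log axis) of the 19 de novo lipogenesis genes summed over adipocyte-like nuclei of each aged cold mouse. Blue marks are 3D and red marks 14D, circles are replicate 1 and triangles replicate 2. In all 19 genes the blue triangle lies above the blue circle, as for Acaca at 5281 and 676 CPM.

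The other metabolic lists held 1 called gene between them. In futile cycles of creatine and calcium 0 of 6 tested genes passed with edgeR, and the median log2 change was -0.35. Of the 6, 1 was higher and 2 lower at an unadjusted p below 0.05, against 4.55% and 3.07% of all genes. Outside the beige-like sub-cluster 0 were higher and 2 lower, against 3.46% and 3.26% there, and the median was -0.72. In fatty acid uptake and oxidation 22 of 23 tested genes were positive, and 7 were higher and none lower at an unadjusted p below 0.05, against 4.55% and 3.07% of all genes. With edgeR 0 of 23 passed, and the median log2 change was 0.58. Both 14D mice lay above both 3D mice in 17 of these 23, against 19.8% of all genes. Outside the beige-like sub-cluster 8 of 23 lay above, against 17% of all genes there. At an unadjusted p below 0.05 4 were higher there, against 3.46% of all genes, and the median was 0.34. In this list too the 3D mice differed, with 3D replicate 2 above 3D replicate 1 in 18 of 23 genes by a median of 0.61, and the median change was 1.01 within pool 1 and 0.32 within pool 2. Hadha, a subunit of the mitochondrial trifunctional protein, was at 69.5 and 116 CPM at 3D and 206 and 178 CPM at 14D (log2 1.05, adjusted p = 0.194), and Slc25a20, the carnitine-acylcarnitine carrier, at 51.6 and 111 CPM and then 222 and 155 CPM (log2 1.22, adjusted p = 0.363). In triglyceride synthesis 1 of 15 genes passed, Gk, which is also a thermogenic member. Of the lists for lipolysis (13 tested, median 0.34), adrenergic signalling (18, 0.26), insulin signalling and glucose use (18, 0.25), sterol synthesis (16, 0.14) and glucocorticoid response (11, 0.12), 0 genes passed with edgeR. In this order 3, 4, 5, 0 and 0 genes were higher and 1, 0, 0, 0 and 1 lower at an unadjusted p below 0.05, against 4.55% and 3.07% of all genes. Irs2, an insulin receptor substrate, was at 40.1 and 42.3 CPM at 3D and 172 and 88.5 CPM at 14D (log2 1.62, adjusted p = 0.0844), though it passed in the low-depth sub-cluster, and Adrb3, the beta-3 adrenergic receptor of adipocytes, at 442 and 708 CPM and then 607 and 737 CPM (log2 0.24, adjusted p = 0.971), with overlap.

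The remaining fallen genes of the rule were Ctnna3, Ntrk2 and Trim67. Ctnna3, an alpha-catenin of cell junctions, was at 408 and 471 CPM at 3D and 147 and 172 CPM at 14D (log2 -1.47, adjusted p = 0.0297). Ntrk2, a neurotrophin receptor, was at 333 and 180 CPM and then 133 and 65.8 CPM (log2 -1.37, adjusted p = 0.0367). Trim67, a ubiquitin ligase, was at 68.1 and 41.3 CPM and then 16.9 and 14.1 CPM (log2 -1.79, adjusted p = 0.0265), and its call is uncertain because it overlaps the predicted gene Gm16163 on the same strand, which was also called lower. The remaining risen genes were Rnf152, an E3 ligase of the lysosome, at 10.0 and 3.02 CPM and then 48.9 and 38.7 CPM (log2 2.84, adjusted p = 0.00775), and Grk3, a kinase of G protein coupled receptors, at 7.17 and 11.1 CPM and then 55.7 and 51.0 CPM (log2 2.48, adjusted p = 0.0085). The groups overlapped in none of these 5 genes. The other called genes, given with their values chosen after these were seen, were Nav2 (log2 3.35), Lgr6, Col27a1 (2.36), Celsr2 (1.54), Slc4a4 (1.46), Sugct (1.05), Mycbp2 (-1.44), Klhl13 (-1.36) and 6 predicted genes, 3 higher and 3 lower.

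Young mice were used to ask whether the change from 3D to 14D was particular to aged mice. In young adipocyte nuclei 60 of the 10271 genes passed between 3D and 14D (0.584%), and 6 genes (0.0584%) passed at both ages. The difference of the 2 changes passed for 9 genes (0.0876%), 8 of them with names, for 36 with DESeq2 (0.351%), and for 769 at an unadjusted p below 0.05 (7.49%). Outside the beige-like sub-cluster 0 of 10034 differences passed with edgeR, with a lowest adjusted p of 0.0814, 615 had an unadjusted p below 0.05 (6.13%), and 14 passed with DESeq2 (0.14%). The beige-like share moved with the comparison, as it was 11.5% and 8.81% in young mice at 3D and 31.8% and 26.7% at 14D. Fgf14 had a log2 change of 2.28 in aged and -0.46 in young mice, whose 3D level was 909 and 931 CPM and 14D level 626 and 711 CPM, and the difference was 2.74 (SE 0.35, adjusted p = 0.0306). Gk was already at 414 and 343 CPM in young mice at 3D and at 488 and 212 CPM at 14D, so that its difference of 2.65 (SE 0.37, adjusted p = 0.031) set a rise in aged mice against -0.19 in young, and outside the beige-like sub-cluster the difference was 0.47 (adjusted p = 0.983). Arntl was at 6.11 and 10.7 CPM in young mice at 3D and 10.2 and 14.96 CPM at 14D, and the difference was -3.74 (SE 0.52, adjusted p = 0.031). Celsr2, an adhesion receptor, had a log2 change of 1.54 in aged and -1.38 in young mice, a difference of 2.93 (SE 0.35, adjusted p = 0.0306), and Sema3a one of 1.94 and -0.65, a difference of 2.60 (SE 0.38, adjusted p = 0.0356). Atp8a1 (-2.08), Cntfr (2.30) and Pdgfd (-2.41) changed by 2.01, -2.05 and 1.59 in young mice and by -0.07, 0.25 and -0.82 in aged mice. Acot11 changed by 4.63 in aged and 3.10 in young mice, and that difference of 1.53 (SE 0.52) did not pass (adjusted p = 0.542). The 9 calls rested on single mice, with 0 left without 14D replicate 1, 14D replicate 2 or 3D replicate 2 of the aged mice, or without young 14D replicate 2, young 3D replicate 1 or young 3D replicate 2, 2 without aged 3D replicate 1, 5 and 4 without young TN replicate 1 and 2, and 15 without aged TN replicate 2.

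Fibroblast-like nuclei, the class that holds adipocyte progenitors, changed in few genes. Of 7835 genes tested, 3 passed (0.0383%), all higher at 14D, 2 passed with DESeq2 (0.0255%), and 355 had an unadjusted p below 0.05 (4.53%). Smpd3 (chr8:106252548-106337988, minus strand), a neutral sphingomyelinase that makes ceramide, was at 146 and 134 CPM at 3D and 443 and 310 CPM at 14D, with no overlap (log2 1.38, SE 0.19, adjusted p = 0.00479 by edgeR). The aged TN mice had 366 and 373 CPM of Smpd3, which placed the 3D mice lowest. Igfbp5, a secreted binding protein of insulin-like growth factors, was at 712 and 449 CPM at 3D and 1127 and 900.0 CPM at 14D (log2 0.84, SE 0.15, adjusted p = 0.0477), and Tmtc2, an endoplasmic reticulum mannosyltransferase, at 34.6 and 18.9 CPM and then 92.2 and 73.7 CPM (log2 1.74, SE 0.31, adjusted p = 0.0477). Both 14D mice lay above both 3D mice in each of the 3 genes, as in 15.9% of all genes, and the days did not overlap in 31.5% of all genes in either direction. The count was 0 without 14D replicate 1, 3D replicate 1 or 3D replicate 2, 1 without 14D replicate 2, either young 14D mouse or young TN replicate 2, 5 without either young 3D mouse, and 0 without the pool as a term.

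Fits within single fibroblast clusters, added after the data were seen, gave the following values. In cluster 7, led by C7, Csmd1 and Plcxd3, where 1 of 1935 genes passed (0.0517%), Smpd3 rose by a log2 change of 3.05 (SE 0.54, adjusted p = 0.00894), and in cluster 2, led by Fndc1, Dpp4 and Pi16, its change was 0.62 (adjusted p = 0.662), and in cluster 0 0.97 (SE 0.92, adjusted p = 0.998). Igfbp5 passed in none of the 3 clusters, with 0.97 in cluster 0 (adjusted p = 0.0987), 0.45 in cluster 2 (0.749) and 0.94 in cluster 7 (1), and Tmtc2 did not pass in cluster 2, where it was tested (1.68, adjusted p = 0.123). In cluster 2, 4 of 4427 genes passed (0.0904%), all lower at 14D: Gpx3, a secreted glutathione peroxidase (log2 -1.91, adjusted p = 0.0322), Chrdl1, a BMP antagonist (-2.04, adjusted p = 0.0439), Angpt1, a ligand of the endothelial receptor Tek (-1.46, adjusted p = 0.0439) and Aox3, an aldehyde oxidase (-1.54, adjusted p = 0.0439). In cluster 0, led by Lama2 and Pde11a, 0 of 5621 genes passed with edgeR and 224 had an unadjusted p below 0.05. Differences between clusters were not tested.

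No list of fibroblast biology held a called gene. Of 22 progenitor genes tested, 5 were higher and 2 lower at an unadjusted p below 0.05, against 2.54% and 1.99% of all genes. Their median log2 change was 0.21, against -0.01 over all genes. Pi16, a marker of interstitial progenitors, was at 555 and 338 CPM at 3D and 814 and 487 CPM at 14D (log2 0.54, SE 0.15, adjusted p = 0.416), with overlap between the days, and Dpp4, marker of the same cells, at 795 and 439 CPM and then 794 and 597 CPM (log2 0.21, adjusted p = 1). Pdgfra, a general marker of these cells, was at 587 and 938 CPM and then 527 and 683 CPM (log2 -0.33, adjusted p = 1). Of 27 matrix genes, 5 were higher and 3 lower at an unadjusted p below 0.05, against the same shares of all genes, with a median of 0.06. For a difference between aged and young mice 0 of 7835 genes passed (403 at an unadjusted p below 0.05, which is 5.14%, and 0 with DESeq2).

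Immune-like and endothelial-like nuclei gave no called gene, at lower depth. In immune-like nuclei, with 65700 to 396939 UMIs per aged cold mouse, 0 of 3772 genes passed with edgeR and 0 with DESeq2 (percent called 0), 108 had an unadjusted p below 0.05 (2.86%), 44 higher (1.17%) and 64 lower (1.7%), the days did not overlap in 1089 (28.9%), and 1 gene passed without 3D replicate 1. Mertk, a receptor of macrophages for dying cells, was at 841 and 1088 CPM at 3D and 1351 and 1474 CPM at 14D (log2 0.55, unadjusted p = 0.0228, adjusted p = 0.999), and Mrc1, the mannose receptor of resident macrophages, at 1463 and 2403 CPM and then 2428 and 2386 CPM (log2 0.32, adjusted p = 0.999). H2-Ab1, an MHC class II chain, was at 254 and 504 CPM and then 258 and 196 CPM (log2 -0.89, adjusted p = 0.999). Of the 17 macrophage genes tested, 1 was higher and none lower at an unadjusted p below 0.05, with a median of 0.12. The makeup of this class varied between mice, with a summed level of 6 B cell markers of 250.4 and 1622 CPM at 3D and 850.5 and 638 CPM at 14D, and of 6 T cell markers of 159 and 553 CPM and then 275 and 37.2 CPM, and its part in these values was not tested.

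In endothelial-like nuclei, with 31502 to 139896 UMIs per aged cold mouse, 0 of 1952 genes passed with edgeR and 0 with DESeq2 (percent called 0), 36 had an unadjusted p below 0.05 (1.84%), and 3 passed without 3D replicate 1. Flt1, a VEGF receptor, was at 1496 and 1660 CPM at 3D and 1345 and 1944 CPM at 14D (log2 0.07, adjusted p = 1), and Tek, the angiopoietin receptor, at 781 and 987 CPM and then 673 and 933 CPM (log2 -0.13, adjusted p = 1), both with overlap. Adipocyte markers summed to 7455 and 9348 CPM in these nuclei at 3D and to 5899 and 4305 CPM at 14D, while the endothelial markers summed to 6647 and 9054 CPM at 3D and to 7886 and 9931 CPM at 14D. In both 3D mice the adipocyte sum was the higher. Ghr, the growth hormone receptor gene and one of those adipocyte markers, was at 5269 and 6726 CPM and then 3430 and 1597 CPM. These values carry the scaling of single genes, which the sums do not have. The part of adipocyte RNA in the values of this class was not tested.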

How the data were processed

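The 4 mice compared and the other 8 were identified by the group names of the deposited aliquots. The members and gene lists were chosen with earlier results of these data known. The deposited files hold UMI counts per gene and nucleus, which the authors made with Cell Ranger on GRCm38 with intronic reads, cleaned with CellBender and assigned to mice by hashtags. The hashtag libraries themselves were not used here. A file lists a gene from 6 UMIs up, so a gene that is not listed was taken as 0 and can hold up to 5 UMIs per aliquot. Bounds on a fold rest on that limit. There were 0 value columns that could not be mapped to a sample.

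Of 15329 barcodes, 15233 reached 300 genes without exceeding 5% of UMIs from mitochondrial genes. Scrublet (scanpy 1.11.5, expected rate 0.05) marked 517 of them (3.394%) as doublets, which were removed. A further 82 nuclei with at least 2 of 10 liver genes were removed by a list written after clusters were seen, 2 and 10 of them in the aged 3D mice and 0 and 35 in the aged 14D mice, and the effect of this removal was not tested. Nuclei were integrated and clustered with Seurat 5.3.0 (2000 variable genes, 18 dimensions, resolution 0.4, 15 clusters), and 117 nuclei were moved to skeletal muscle by a finer clustering (0.8). A class needed 3 markers at 2-fold (prior 10 CPM). Sub-clusters of adipocyte nuclei (resolution 0.2) needed them at 1.5-fold. As names were rebuilt from markers, they may differ from those of the study.

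Within a class, the UMIs of each mouse were added up and fitted with edgeR 4.0.16 (R 4.3.3) by the quasi-likelihood F-test, with TMM scaling, filterByExpr, 6 groups and the pool as terms, over 12 mice. Benjamini-Hochberg adjustment ran across every gene in the fit, and calls used 0.05. CPM values of single genes are scaled by TMM, while marker sums and the Gm42418 level are plain shares of the UMIs of a mouse and class. Each SE was taken from the log2 change and the F statistic. The fit was tested on simulated data with 200 changed genes. DESeq2 1.42.0 and other settings were alternatives. The replicate number marks a pool, that is a shared library, and the correlation of same-pool deviations was 0.224 in adipocyte, 0.263 in fibroblast, 0.08 in immune and 0.102 in endothelial nuclei.

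Named genes were, in each class, the 8 with the smallest adjusted p among those called in each direction and changed alike in both pools, and called list members. Members of the thermogenic, lipogenic, clock and natriuretic lists were named as well. Other genes named below the threshold, and fits within clusters, were chosen after the values were seen. Gene positions are from GENCODE and promoters from RefSeq (GRCm38.p6). Intervals and floors cover counting error only.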

Additional observations from a re-analysis of the deposited data

Results flagged for a closer look

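The change from 3D to 14D in adipocyte-like nuclei differed between aged and young mice for 9 genes by edgeR's test of the difference itself. The values below are the aged change minus the young change on the log2 scale. Fgf14 differed by 2.74 (adjusted p = 0.0306), Celsr2 by 2.93 (0.0306), Gk by 2.65 (0.031), Sema3a by 2.60 (0.0356), Cntfr, a receptor of ciliary neurotrophic factor, by 2.30 (0.031) and the predicted gene Gm34084 by 2.49 (0.031). Arntl differed by -3.74 (adjusted p = 0.031), Atp8a1, a phospholipid flippase, by -2.08 (0.0306) and Pdgfd, a platelet-derived growth factor, by -2.41 (0.044). Outside the beige-like sub-cluster 0 differences passed with edgeR (lowest adjusted p = 0.0814, 615 at an unadjusted p below 0.05, 14 with DESeq2), and that of Gk, with 76.6% of its 14D UMIs in beige-like nuclei, was 0.47. Each group held 2 mice, and 0 of the 9 calls were left without aged 14D replicate 1.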

How the results depend on the processing

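All 34 calls in adipocyte nuclei were shared by DESeq2, and no called gene turned its direction within its own comparison in any setting tried. Of the named adipocyte genes that did not pass, 17 turned theirs or reached 0 in some setting. In 10 this took the loss of a mouse (Esrra, Prdm16, Zfp423, Acly, Acaca, Me1, Thrsp, Pgd, Cry2 and Bhlhe41). Other settings also turned Dio2 and Cox8b (1 aliquot per mouse), Scd2 (1 aliquot, thinned UMIs), Acss2 and Fasn (the 4 aged cold mice alone), Cox7a1 (no pool term) and Cry1, close to 0, which was -0.08 under DESeq2 and negative under other scaling. The count of 34 became 85 with DESeq2, 54 with no filter on low genes, 17 with no replicate block (without the pool term), 5 with 1 aliquot per mouse and 18 over genes listed in all 8 aged cold aliquots, and it ranged from 3 to 37 when single mice were left out. The 11 genes outside the beige-like sub-cluster became 54, 35, 5 and 2 in the first 4 of these settings and 0 in the 4 aged cold mice alone, with a range of 0 to 23. The 9 differences between ages became 36, 16, 2 and 3, and 2 with thinned UMIs, with a range of 0 to 15. In fibroblast nuclei the 3 genes became 48 with no filter, 0 with no replicate block, 0 with 1 aliquot, 14 in the 4 mice alone and 6 over genes in all aliquots (range 0 to 5), and the 0 differences between ages became 30 with no filter (range 0 to 1). In immune nuclei 0 became 16 with no filter, 2 with 1 aliquot and 1 in the 4 mice alone (range 0 to 1), and in endothelial nuclei 9 with no filter and 12 in the 4 mice alone (range 0 to 3). Fewer genes tested or fewer mice are part of some settings, and the cause of the other moves was not tested. Leaving out single mice, the difference in share ranged from -20.9 to 15.1 percentage points for adipocyte, -7.87 to 15.1 for fibroblast, -5 to 4.16 for immune and -1.28 to 2.82 for endothelial nuclei, and from 5.99 to 7.01 for the beige-like share. Leaving out the low-depth sub-cluster, an alternative chosen after seeing the data, gave 37 genes.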
